A study of Mus musculus with 8 samples.

Results

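The 10 blood progenitor transcription factors described here were Gata1, Gata2, Tal1, Runx1, Spi1, Gfi1, Gfi1b, Myb, Lmo2 and Meis1. They were taken by gene name or accession from 2 Agilent mouse array designs, which together carried 63329 gene names. All 10 genes had a probe on each design, with 14 probes on slide 1 and 11 probes on slide 2. Spi1 stood on the arrays under its older name, Sfpi1.

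The study asked whether bone marrow (BM) cells that lack lineage markers (Lin-) take on a hepatic phenotype in an injured liver, and whether blood genes, Gata2 among them, are lost on the way. Lin- BM cells (arrays L3 and L4) came from young adult female C57Bl6/J-Tg(UBCGFP)30Scha/J mice, whose eGFP transgene is driven by the ubiquitin C promoter. They were what remained after magnetic depletion with antibodies to lineage markers, among them CD11b, Gr-1 and Ter119. BM-derived hepatocytes were eGFP-expressing cells sorted from livers of young adult male hemophilia A mice, which carry the F8tm1Kaz allele of the factor VIII gene, that had received acetaminophen to injure the liver and then the Lin- cells by tail vein. Livers were perfused with collagenase and spun at low speed before the sort. Cells were taken 1 month (B1 and B2) or 5 months (G1 and G3) after transplantation, and the sort marked donor origin rather than cell type, while sorted cells were also checked by albumin staining. Primary hepatocytes (H2 and H4) were the positive control, and their strain and treatment are not given in the sources used here. Each group had 2 arrays, and each array held RNA from pooled cells of 3 mice.

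Blood progenitors are held in their state by a small set of DNA-binding proteins that act together. GATA2 and GATA1 are zinc finger proteins that bind GATA motifs, TAL1 is a helix-loop-helix protein that binds E-boxes, and LMO2 is a bridge that joins TAL1 to the GATA proteins in 1 complex. RUNX1, MYB and the homeobox protein MEIS1 are needed for stem and progenitor cells, SPI1 (PU.1) directs myeloid and B cell fates, and the repressors GFI1 and GFI1B act in the neutrophil and the red cell and platelet lines. Liver parenchyma is not known for these genes, while its endothelium and macrophages use some of them.

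Each array gave the background-subtracted brightness of every spot, called the signal here, with a flag for spots well above background. On the 8 arrays, 47.7% to 58.6% of spots carried that flag, 0 spots were saturated, and the lowest signal well above background lay between 6.97 and 8.86. Slide 1 held the Lin- and 1-month arrays and slide 2, of another design and scanned on another day, the primary and 5-month arrays, so that slide, design, scan day and group cannot be told apart in any comparison across slides. The labels were checked with fixed markers. All 4 progenitor markers (Kit, Cd34, Flt3 and Ptprc) were well above background in Lin- BM cells, where the hepatocyte markers Alb, Apoa1, Ttr and Cps1 were not and Hnf4a and Tat were, at low level (log2 -2.84 and -3.75 for Hnf4a, -3.63 and -3.94 for Tat, on L3 and L4). All 6 hepatocyte markers were well above background on the 6 hepatocyte arrays. All 6 Kupffer cell markers were also well above background on each hepatocyte array, and so were at least 5 of 6 markers of sinusoidal endothelium. In such bulk samples, fewer cells of a type and less RNA per cell cannot be told apart.

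The first 30 of the 60 bases of the probes are shown where a result turns on the probe. For Gata2, Runx1, Spi1 and Gfi1b the same probe sequence lay on both designs, and these are the only members that could be set side by side in all 4 groups.
Gata2 shared probe: aactgcataagcttaacccgctgatgagtg
Runx1 shared probe: tgtgcatcgtgtcactgtaaatgtaatggt
Spi1 shared probe: gatggagaaagccatagcgatcactactgg
Gfi1b shared probe: agccatgatagtagaagcctgctcctatca
In the build of the array files (mm9) these probes lay at chr6:88156362-88156421, chr16:92604413-92604472, chr2:90939665-90953452 and chr2:28464982-28465041, on the plus, minus, plus and minus strands. The interval given for the Spi1 probe is far longer than the probe, whose 60 bases do not fill it. Runx1 had another probe on each design, and these gave readings unlike the shared probe.
Runx1 second probe, slide 1: gggcctccttgaaccactccactgccttta
Runx1 second probe, slide 2: caggagggcccttggaggccaccaggaaga
The second probe of slide 2 lay at chr16:92605785-92605844, minus strand, and the design of slide 1 gave no positions. The Tal1 probes of the designs were nearly the same, shifted by 3 bases with 57 bases in common. Capitals mark the common bases within the stretches shown.
Tal1 probe, slide 1: tgtACAGCCTATAGGCCAACACTGCGGGCG
Tal1 probe, slide 2: ACAGCCTATAGGCCAACACTGCGGGCGtgt

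In Lin- BM cells all 14 probes of the 10 genes were well above background on both arrays. At 1 month 3 of the 14 probes were well above background on both arrays (1 each of Gata2, Tal1 and Runx1), 2 on 1 array (Lmo2 and 1 of Meis1) and 9 on none. Over all spots, 58.6% and 56.9% were well above background on L3 and L4, against 47.7% and 51.5% on B1 and B2. Of the 10 genes, 8 were called lower at 1 month than in Lin- BM cells and 0 were called higher, by limma (the linear model test used here) at a Benjamini-Hochberg adjusted p under 0.05 and a log2 difference beyond 0.6 in size. Among all 28522 genes tested on this slide, 26.5% were called lower and 28.8% higher. The median log2 difference of the 10 genes was -6.04, or -5.18 with the 5 genes that no 1-month array showed above background set at their bound, against 0.07 over all genes. Of the 10 genes, 7 entered the test through the Lin- arrays alone, which allows such a gene to be called only as lower, so neither the count nor the median is support of its own. The methods' t-test, run on the same values, passed 8 of them unadjusted and 3 after Benjamini-Hochberg adjustment. The differences below are of log2 signals after subtraction of the 75th percentile of each array, with the standard error (SE) of the fit and 2 arrays per group. With normexp background correction, which adds an offset to every spot, all 8 differences were smaller in size, from -0.98 for Meis1 to -8.17 for Myb, so the folds below hold for the signals as deposited. An exact permutation test of 2 against 2 arrays cannot go below p = 0.333.

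**Figure D1:**
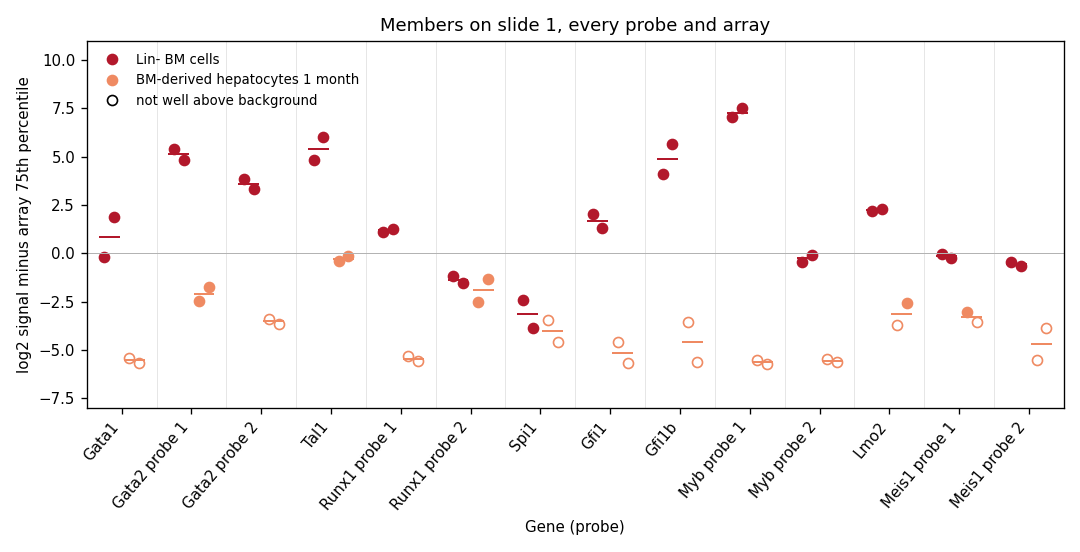
Log2 signal minus the 75th percentile of the array (vertical axis) for each of the 14 member probes of slide 1 (horizontal axis), with Lin- BM cells in red and 1-month BM-derived hepatocytes in orange. Each point is 1 array, the short bar is the group mean, and open points were not well above background. The groups overlap for Runx1 probe 2 and Spi1. How many of all slide 1 probes overlap was not counted, so the absence of overlap at the other member probes is no support of its own.

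Gata1, the GATA protein of red cell and platelet precursors, had signals of 165 and 646 on L3 and L4 and of 1.73 and 1.75 on B1 and B2. The 1-month values were not well above background, the groups did not overlap, and the level was at least 17.8-fold lower at 1 month, counted against the lowest signal well above background on each array (log2 difference -6.38, SE 0.72, adjusted p = 0.00248). With normexp background correction the difference was -1.96 and the call was lost (adjusted p = 0.0521). Gata2, the GATA protein of stem cells and early progenitors, had signals of 8080 and 4990 in Lin- BM cells and of 13.7 and 26.6 at 1 month on its brighter probe. All 4 of these values were well above background, and the level was 147-fold lower at 1 month (log2 difference -7.20, SE 0.39, adjusted p = 0.000344). The shared Gata2 probe read 2740 and 1770 against 7.09 and 7.08, which was at least 120-fold lower (adjusted p = 0.000181 in a limma fit over all probes). Both probes thus placed Gata2 far below the Lin- level, and the brighter of them still read above background.

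The partners of the GATA proteins fell as well. Tal1 had signals of 5470 and 11300 in Lin- BM cells and of 56 and 78.7 at 1 month, a 52.4-fold lower level (log2 difference -5.71, SE 0.46, adjusted p = 0.000984). Lmo2 read 862 and 862 in Lin- BM cells and 5.81 and 15.1 at 1 month, where only the higher value was well above background (log2 difference -5.35, SE 0.44, adjusted p = 0.00109; -2.98 with normexp). The groups did not overlap for either gene. Tal1 stayed well above background on both 1-month arrays, with a level of -0.30 ± 0.18 (SD, n = 2) against 5.42 ± 0.83 (SD, n = 2) in Lin- BM cells on the log2 scale.

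The brighter probe of Myb read 25400 and 31600 in Lin- BM cells and 1.65 and 1.70 at 1 month, at least 1550-fold lower (log2 difference -12.87, SE 0.30, adjusted p = 6.29e-05). The second Myb probe read 143 and 165 against 1.67 and 1.81, at least 8.37-fold lower (adjusted p = 0.000296 in the fit over all probes). Neither Myb probe was well above background at 1 month, so both folds are lower bounds. Meis1 read 185 and 148 against 8.98 and 7.40 on 1 probe, where B1 but not B2 was well above background (log2 difference -3.17, SE 0.31, adjusted p = 0.00165; -0.98 with normexp). The other Meis1 probe read 141 and 113 against 1.63 and 6.17 and was at least 6.88-fold lower (adjusted p = 0.00463 in the fit over all probes).

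The Runx1 probes differed in result. The shared probe read 417 and 415 in Lin- BM cells and 1.86 and 1.87 at 1 month, at least 22.7-fold lower (adjusted p = 0.000145 in the fit over all probes). The second probe read 84.8 and 60.6 against 13.0 and 35.6, all well above background, and the groups overlapped after scaling (log2 difference -0.57, SE 0.47, adjusted p = 0.35). That probe had the higher mean over the 4 arrays, so it stood for the gene and Runx1 was not among the 8 genes called. With the mean of both probes the log2 difference was -3.60 (adjusted p = 0.000968), and without B1 or B2 the shared probe stood for the gene, with -6.75 (adjusted p = 0.00495) and -6.51 (adjusted p = 0.00408). Whether the 2 probes read different transcripts was not tested.

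Spi1 read 35.8 and 12 in Lin- BM cells and 6.85 and 3.73 at 1 month, where neither value was well above background. The groups overlapped after scaling (log2 difference -0.87, SE 0.64, adjusted p = 0.291), so no difference was detectable at this signal, and under normexp background correction the sign turned (0.49). The repressors were lower at 1 month. Gfi1 read 791 and 440 against 3.06 and 1.72, at least 32.2-fold lower (log2 difference -6.83, SE 0.48, adjusted p = 0.000703; -2.63 with normexp). Gfi1b read 3310 and 8750 against 6.30 and 1.77, at least 294-fold lower (log2 difference -9.48, SE 0.86, adjusted p = 0.00139; -5.75 with normexp). The groups did not overlap for either repressor, and none of their 1-month values was well above background.

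The 2 Lin- arrays differed from each other. Gata1, Tal1 and Gfi1b were higher on L4, where the summed signal of 3 megakaryocyte markers (Pf4, Gp9 and Itga2b), in units of the 75th percentile of the array, was 116 against 45.3 on L3. That sum was mostly Pf4, with log2 levels of 6.77 on L4 and 5.32 on L3, while Itga2b was higher on L3 (0.85 against 0.15). Gata2, Gfi1 and Spi1 were higher on L3, where the summed signal of 5 neutrophil markers was 144 against 16.8 on L4. Runx1 (shared probe) and Lmo2 differed little between these arrays. The part of these cell types in the values was not tested, and each of the 8 calls kept its direction and stayed past the threshold without either Lin- array.

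On slide 2 the primary and 5-month hepatocytes were compared. In primary hepatocytes, 3 genes were well above background on both arrays (Tal1, Lmo2 and Meis1), Gata2 on 1 array and the other 6 on none. At 5 months 6 genes were well above background on both arrays (Gata2, Tal1, Runx1, Gfi1b, Lmo2 and Meis1), Myb and Spi1 on 1 array each, and Gata1 and Gfi1 on none. The 6 genes that were well above background on both arrays of a group could be tested, and 1 of them, Gfi1b, was called higher at 5 months. Gfi1b and Runx1 entered the test through the 5-month arrays alone, since neither primary array was well above background, and a gene that enters in this way can be called only as higher. Without the filter Gfi1b did not pass (adjusted p = 0.0906). None of the 6 was called lower, and of the 19917 genes tested on this slide limma called 0.367% higher and 0.186% lower. At an unadjusted p under 0.05 limma passed 2 of the 6 members, and the methods' t-test after Benjamini-Hochberg adjustment passed 0.

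**Figure D2:**
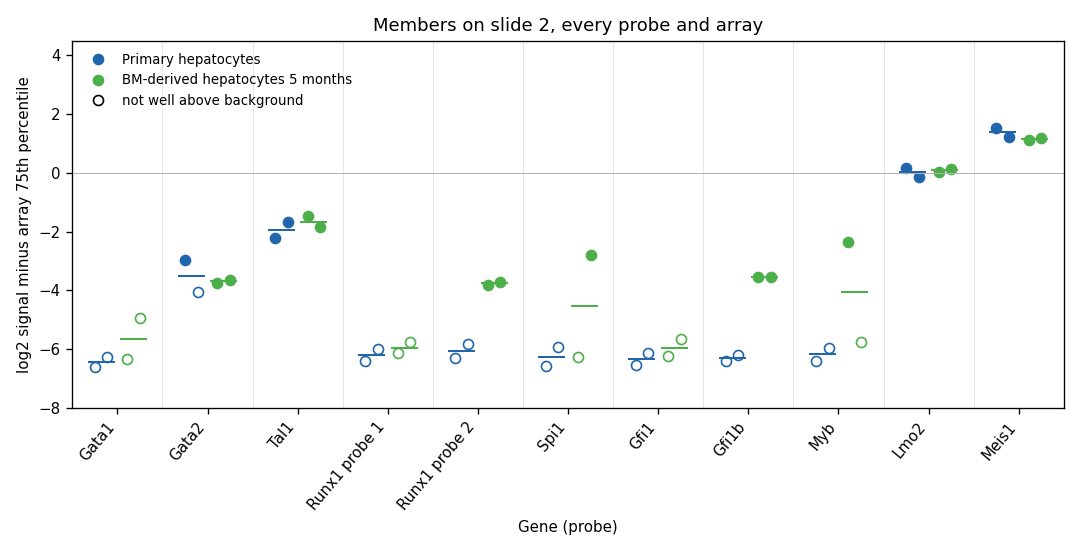
Log2 signal minus the 75th percentile of the array (vertical axis) for each of the 11 member probes of slide 2 (horizontal axis), with primary hepatocytes in blue and 5-month BM-derived hepatocytes in green. Each point is 1 array, the short bar is the group mean, and open points were not well above background. Lmo2 and Meis1 lie near or above 0 in both groups, and both arrays at 5 months stand apart from both primary arrays for Gfi1b and Runx1 probe 2.

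Gfi1b read 1.65 and 1.72 on H2 and H4, below background, and 10.6 and 8.95 on G1 and G3, just above it. The groups did not overlap, and the level was at least 1.55-fold higher at 5 months (log2 difference 2.77, SE 0.21, adjusted p = 0.0356). The call was lost under 7 of 14 other settings, among them the removal of either 5-month array and normexp background correction, where the difference was 0.20 (adjusted p = 0.687). The second Runx1 probe read 1.79 and 2.25 in primary hepatocytes and 8.68 and 7.96 at 5 months, at least 1.33-fold higher, and did not pass the threshold (log2 difference 2.30, SE 0.26, adjusted p = 0.0699). The shared Runx1 probe was below background on all 4 arrays, with signals between 1.66 and 1.99. The summed signal of the 6 Kupffer markers was 21.8 and 45.8 in primary hepatocytes and 96.2 and 90.7 at 5 months, with a difference above 0 for 6 of 6 genes and 0 called by limma (3 at an unadjusted p under 0.05, and 0 by the methods' t-test). Of the 3 megakaryocyte markers, Pf4 was well above background on all 4 arrays, with log2 levels of -2.96 and -1.61 on H2 and H4 and of -0.52 and -1.94 on G1 and G3, Itga2b on H4 and G1, and Gp9 on none. The mast cell and basophil markers Cpa3, Ms4a2 and Mcpt8 were not well above background on any hepatocyte array. The part of macrophages and of megakaryocytes or platelets in the Gfi1b and Runx1 values was not tested.

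Myb and Spi1 each stood out on 1 array. Myb read 24.1 on G1 and 1.91 on G3, against 1.69 and 2.03 in primary hepatocytes. Spi1 read 14.7 on G3 and 1.60 on G1, against 1.47 and 2.07. Neither gene entered the test, since the 5-month arrays did not both show it. On G1 all 5 neutrophil markers were well above background, against 2 of 5 on G3 and 3 of 5 on each of H2 and H4. Their summed signal was 24.9 on G1 and 14.3 on G3, against 11.2 on H2 and 23.3 on H4. Among them Elane was highest on H4 (log2 4.37, against 3.42 on G1). Camp, Ltf, Ngp and S100a8 were highest on G1, with S100a8 at 2.11 against -3.91 on G3, -3.09 on H2 and -2.52 on H4. Whether this bears on Myb was not tested.

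The other members differed by less than the test could resolve between primary and 5-month hepatocytes. Lmo2 read 159 and 115 in primary hepatocytes and 126 and 114 at 5 months (log2 difference 0.07, SE 0.22, adjusted p = 0.919). Meis1 read 413 and 294 against 269 and 236, and both 5-month levels lay below both primary levels after scaling (log2 difference -0.22, SE 0.23, adjusted p = 0.709). Each array of slide 2 had both genes well above background, with log2 levels of -0.13 to 0.16 for Lmo2 and 1.12 to 1.54 for Meis1. The slide 2 probes of both genes differ in sequence from those of slide 1, and each slide has its own scale. The lower Lmo2 and Meis1 levels at 1 month therefore hold for the slide 1 probes only. Tal1 read 30.5 and 39.9 against 44.9 and 28.4 (log2 difference 0.28, SE 0.30, adjusted p = 0.731). Gata2 read 18.2 and 7.69, of which only the first was above background, against 9.24 and 8.27 (log2 difference -0.19, SE 0.41, adjusted p = 0.875). The groups overlapped for Tal1, Gata2 and Lmo2. Sinusoidal endothelium, which is known to use Tal1, Lmo2 and Gata2, gave summed marker signals of 49.0 and 54.2 in primary hepatocytes and 53.0 and 65.6 at 5 months, and its part in the levels of these genes was not tested. Gata1, with signals of 1.45 to 3.40, and Gfi1, with 1.53 to 2.04, were below background on all 4 arrays.

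The 4 members with a shared probe were then set side by side in all 4 groups, with the 75th percentile taken over the 13991 shared sequences. These comparisons share arrays, and slide and group cannot be told apart in them. Relative to Lin- BM cells, all 4 genes were called lower in primary hepatocytes, where 38.1% of the 9202 genes tested were called lower, and 3 of 4 at 5 months, where 37.8% were. Both counts stand on 4 genes and on shares over all genes of this size.

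**Figure D3:**
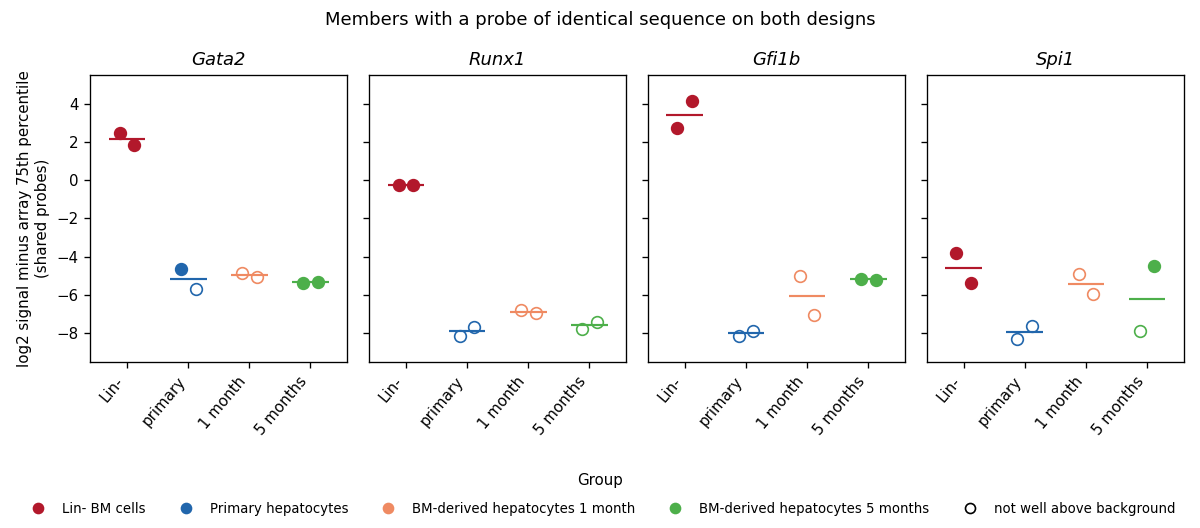
Log2 signal minus the 75th percentile of the array over shared probes (vertical axis) for Gata2, Runx1, Gfi1b and Spi1 in the 4 groups (horizontal axis). Each point is 1 array, the bar is the group mean, and open points were not well above background. Gata2, Runx1 and Gfi1b drop from Lin- BM cells to all 3 hepatocyte groups, and Spi1 overlaps between Lin- BM cells and both BM-derived groups.

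Gata2 had relative levels of 2.46 and 1.81 in Lin- BM cells, -4.85 and -5.04 at 1 month, -5.36 and -5.31 at 5 months and -4.67 and -5.71 in primary hepatocytes, on the log2 scale. The Lin- level stood alone and the 3 hepatocyte groups overlapped or lay close to each other. In primary hepatocytes, where H2 but not H4 was well above background, the log2 difference from Lin- BM cells was -7.33 (SE 0.39, adjusted p = 1.23e-05; -4.56 with normexp). At 5 months Gata2 was 178-fold lower than in Lin- BM cells (log2 difference -7.47, SE 0.39, adjusted p = 1.18e-05; -4.54 with normexp). Gata2 at 1 month differed from primary hepatocytes by 0.25 (adjusted p = 0.704) and at 5 months from 1 month by -0.39 (adjusted p = 0.515), with the SE of 0.39 in both.

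Runx1 had relative levels of -0.25 and -0.28 in Lin- BM cells and between -8.12 and -6.78 on the 6 hepatocyte arrays, none of them well above background. It was at least 47.8-fold lower in primary hepatocytes (adjusted p = 1.47e-06) and at least 39.6-fold lower at 5 months (adjusted p = 1.83e-06). Gfi1b, at 2.73 and 4.11 in Lin- BM cells, was at least 618-fold lower in primary hepatocytes (log2 difference -11.42, SE 0.71, adjusted p = 2.2e-05). At 5 months, with -5.17 and -5.20 and both arrays above background, it was 390-fold lower than in Lin- BM cells (log2 difference -8.61, SE 0.71, adjusted p = 8.28e-05). With normexp the differences from Lin- BM cells were -2.71 and -6.17 for Runx1 and Gfi1b in primary hepatocytes and -2.65 and -5.94 at 5 months, and all 4 stayed called. At 5 months Gfi1b thus lay above background yet far under its Lin- level.

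Spi1, at -3.80 and -5.39 in Lin- BM cells, was at least 2.38-fold lower in primary hepatocytes (log2 difference -3.35, SE 1.11, adjusted p = 0.0333). Quantile normalization ended this call (adjusted p = 0.0804), as did normexp and the removal of L3 (adjusted p = 0.166) or of either primary array. At 5 months its values of -7.90 and -4.48 overlapped the Lin- values (log2 difference -1.59, SE 1.11, adjusted p = 0.242).

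Between 1-month and primary hepatocytes, 1 of the 4 genes, Runx1, was called, where 11.5% of all genes were called higher. Neither group was well above background for it, so no direction or fold was read from the call. Between 5 months and 1 month limma called 0 of the 4 genes (1 at an unadjusted p under 0.05 and 0 by the methods' t-test), where 17.1% of all genes were called in either direction. The order of the hepatocyte groups for these 4 genes was therefore not resolved.

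Genes related to the members were counted in lists. The lists hold genes of known relation to the members, and Kit, Cd34, Flt3 and the red cell and platelet targets also serve as cell type markers above. The study named Gata2 as down-regulated in these samples and showed further blood genes in heat maps, so the direction of the members is no independent evidence.

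**Figure D4:**
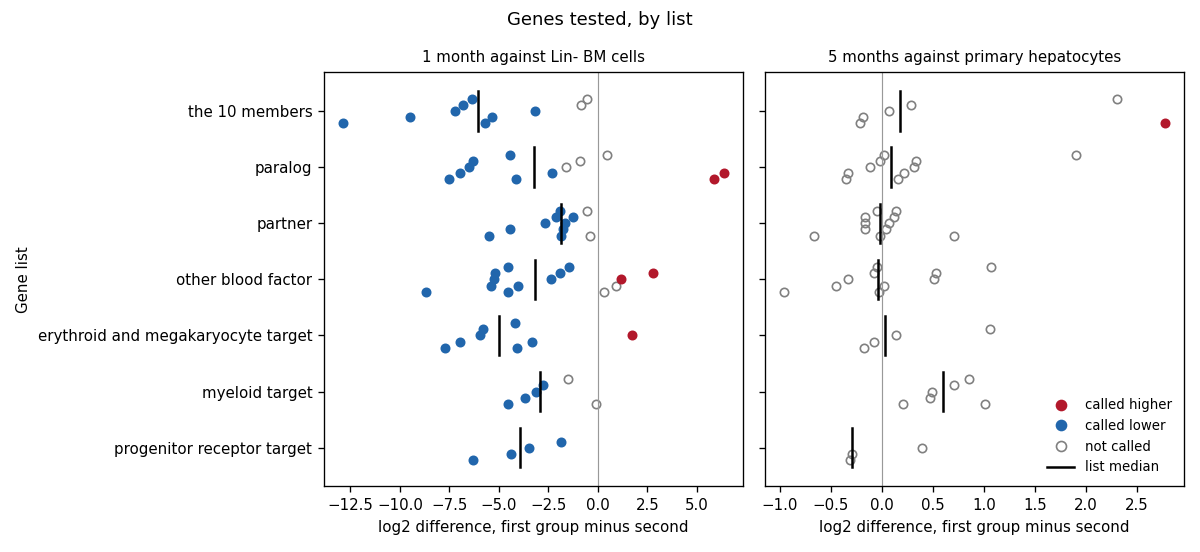
Log2 differences (horizontal axes) of the genes tested in each list (vertical axis), at 1 month against Lin- BM cells on the left and at 5 months against primary hepatocytes on the right. Each point is 1 gene, filled points were called by limma (red higher, blue lower), open points were not, and the black bar is the median of the list. On the left most points lie below 0, with 8 of 10 members called lower, and on the right the filled point is Gfi1b.

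Of 17 paralogs, 12 could be tested at 1 month against Lin- BM cells, 7 were called lower and 2 higher (median log2 difference -3.23). Lyl1, the close relative of Tal1, fell by 6.96 on the log2 scale with all 4 arrays above background. Runx2, a RUNX protein known from bone, had a difference of -7.51 with 1 of the 1-month arrays above background, and Lmo1, with neither, was at least 20.9-fold lower. In the other direction went Gata6, the GATA protein of endoderm (log2 difference 5.87, adjusted p = 0.00075), and Meis2 (6.36, adjusted p = 0.00177). On the slide 1 probes the GATA and MEIS families were thus split at 1 month. Gata1, Gata2, Gata3 (-4.42) and Meis1 were lower and Gata6 and Meis2 higher, while Gata4 was not called (0.47, adjusted p = 0.173). The direction of each of the 8 members called was the same under all 3 other scalings.

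Of 11 partner proteins, all were tested, 9 were called lower and 0 higher (median -1.87). Hoxa9, a cofactor of MEIS1, was not above background at 1 month and at least 14.8-fold lower. Cbfa2t3, a corepressor in the TAL1 complex, had a log2 difference of -4.42 and Tcf3, the E protein that pairs with TAL1, one of -2.67. Zfpm1 (FOG1), the cofactor of GATA1, was not called (-0.54, adjusted p = 0.238). Of 14 other blood factors, 10 were called lower and 2 higher (median -3.18). Among them Ikzf1, not above background at 1 month, was at least 108-fold lower, and Irf8 and Mef2c had log2 differences of -5.42 and -5.23. These factors act in lymphoid and myeloid lines. Cebpa (2.79, adjusted p = 0.00342), which serves both granulocytes and hepatocytes, and Cebpe (1.17, adjusted p = 0.0442) were higher.

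The targets moved mostly with the members. Of 8 red cell and platelet genes, 7 were called lower and 1 higher (median -5.00, or -3.58 with the 4 genes not above background at 1 month set at their bound). Pf4 had a log2 difference of -7.71, and Gp9 and Itga2b, not above background at 1 month, were at least 44.9-fold and 14.2-fold lower. The exception was Alas2, the heme synthesis enzyme of red cells (1.73, adjusted p = 0.0127). Of 6 myeloid targets, 4 were called lower and 0 higher (median -2.93, or -2.13 with 2 genes set at their bound). Csf2ra had a log2 difference of -3.67, and Csf3r and Itgam, not above background at 1 month, were at least 10.1-fold and 1.75-fold lower. On slide 2, which has its own scale, the brightest probes of Csf3r and Itgam were well above background on all 4 arrays. Their log2 levels there were 6.25 to 6.67 and 2.58 to 4.42, so the result at 1 month holds for the slide 1 probes only. Itgam encodes CD11b, against which the Lin- cells had been depleted, and the effect of that on its level was not tested. All 4 progenitor receptors were called lower (median -3.94), with Cd34 at -6.31 and Kit at -4.37.

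At 5 months against primary hepatocytes, 44 genes of these lists could be tested and limma called 0 of them (4 at an unadjusted p under 0.05, and the methods' t-test passed 1 unadjusted and 0 adjusted). The list medians lay between -0.29 for the progenitor receptors and 0.60 for the myeloid targets, against 0.04 over all genes, and 6 of 6 myeloid targets were above 0. Across slides, 32 of these genes could be tested against Lin- BM cells. In primary hepatocytes 4 were called higher and 24 lower, where 67.4% of all genes were called in either direction. At 5 months 5 were called higher and 23 lower, where 67.1% of all genes were called.

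**Figure D5:**
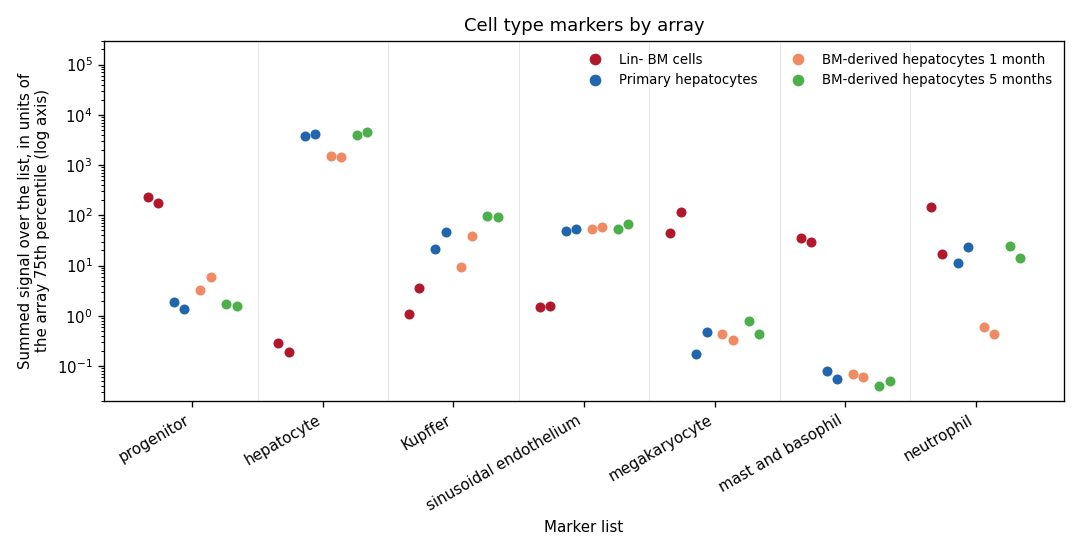
Summed signal of each marker list in units of the 75th percentile of the array (vertical axis, logarithmic) on each of the 8 arrays, by list (horizontal axis) and group (colour). Each point is 1 array. Progenitor markers lie at 172 and 229 in Lin- BM cells and at 1.34 to 5.81 on the hepatocyte arrays, hepatocyte markers at 0.186 and 0.281 against 1470 to 4650, and both slides keep their own scale.

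For the 4 shared members, the 2 genes of most similar pattern over the 8 arrays were sought among the 8753 genes tested that RefSeq holds. The measure was the root mean square difference of log2 values after each gene's own mean was removed. Gata2 was closest to Klk8 (0.46) and to Cd34 (0.47), the surface marker of progenitors. Runx1 was closest to Rag1 (0.12) and Prg2 (0.13). Gfi1b was closest to Kcnn4 (0.78) and Slc14a1 (0.95), and Spi1 to Klhl34 and Ankrd37 (both 0.80). The hepatocyte values of Runx1 were below background throughout, and 8 arrays of 4 groups hold few independent points.

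Since most members moved together at 1 month, the 250 bases before their transcription starts were searched for the motifs these proteins bind. RefSeq windows (GRCm38.p6) were found for 8 of the 10 genes, 12 windows in all, and for neither Spi1 nor Lmo2. A GATA motif (searched on both strands as AGATAA, as TGATAA and as both of these with a closing G) lay in 2 of the 12 windows, those of Tal1 and Gfi1b, against 26.5% of all 32851 windows. An E-box (CAGNTG) lay in 2 of 12, those of Runx1 and Gfi1, against 44.8%. The ETS motif of SPI1 (GAGGAA) lay in 3 of 12 against 23.3%, the RUNX motif (TGTGGT) in 1 of 12, that of Meis1, against 14.0%, and the MYB motif (AACNG) in 7 of 12 against 74.2%. These are letters found in a window, and nothing was measured at these places. The windows below were chosen because they hold the GATA matches (Tal1 and Gfi1b), a pair of E-boxes (Runx1), or neither (Gata2). Capitals mark GATA and E-box matches, and each is written 5′ to 3′ on the strand of the gene.
Tal1, chr4:115056176-115056425, plus strand: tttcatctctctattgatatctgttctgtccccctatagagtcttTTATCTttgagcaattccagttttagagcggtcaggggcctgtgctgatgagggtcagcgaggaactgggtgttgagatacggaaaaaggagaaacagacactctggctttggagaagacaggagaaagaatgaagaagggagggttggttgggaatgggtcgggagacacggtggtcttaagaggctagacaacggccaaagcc
Gfi1b, chr2:28621983-28622232, minus strand: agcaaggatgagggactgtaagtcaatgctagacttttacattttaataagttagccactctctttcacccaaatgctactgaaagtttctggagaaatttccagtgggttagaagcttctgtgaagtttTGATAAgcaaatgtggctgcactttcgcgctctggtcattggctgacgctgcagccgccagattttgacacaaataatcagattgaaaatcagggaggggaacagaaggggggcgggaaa
Runx1, chr16:92826075-92826324, minus strand: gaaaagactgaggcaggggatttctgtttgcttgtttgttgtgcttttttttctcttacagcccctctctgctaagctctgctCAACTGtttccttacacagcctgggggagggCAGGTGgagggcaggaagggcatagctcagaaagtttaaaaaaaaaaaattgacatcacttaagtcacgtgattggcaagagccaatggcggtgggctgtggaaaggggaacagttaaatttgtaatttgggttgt
Gata2, chr6:88193641-88193890, plus strand: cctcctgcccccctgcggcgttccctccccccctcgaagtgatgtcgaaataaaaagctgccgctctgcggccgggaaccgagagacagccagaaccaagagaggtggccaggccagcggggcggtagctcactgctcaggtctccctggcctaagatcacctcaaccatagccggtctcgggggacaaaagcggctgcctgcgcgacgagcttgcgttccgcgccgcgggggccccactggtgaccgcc
The GATA match of Tal1, read on the other strand as TTATCT, began at position -205 from the start and that of Gfi1b at -120. The E-boxes of Runx1 began at -167 and -136. Gata2, Tal1, Runx1 and Gfi1 also had a second start in RefSeq, and in none of those windows was a GATA motif or an E-box found.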

How the data were processed

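RNA from pooled cells of 3 mice per array was labelled with cy3 from an oligo-dT primer and hybridised to 1-colour Agilent mouse arrays, 2 arrays per group. The deposited scanner files hold the intensity of each spot as given by Feature Extraction, already background-subtracted. The authors also deposited log2 values made in GeneSpring GX by a shift to the 75th percentile, which lay within 0.02 of the log2 signal minus a constant for at least 99.7% of the probes of each array and served as an alternative. Spots with no measurable signal carry a low stand-in value from Feature Extraction: 26 of the 100 member values were of this kind and 17 others were measured but not well above background.

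Control spots and outlier spots were left out, log2 signals were shifted to the 75th percentile of each array, and genes well above background on both arrays of any group compared were tested with limma 3.58.1 in R 4.3.3, with Benjamini-Hochberg adjustment over all genes and the probe of highest mean per gene. Across slides only probes of identical sequence entered, with all 4 groups in 1 fit. The fits were tested on simulated data. The sources used here do not say whether the 2 arrays of a group came from separate transplantations, so p-values measure only the spread between these arrays, whose number limits the precision. Other settings tried were quantile normalization, normexp (offset 50) on the raw spot means, another probe set for the percentile, no filter on dim probes, the mean of a gene's probes, the authors' values, the methods' t-test, another set of groups in the fit, slide as a block, and leaving out each array.

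Lists covered paralogs, partners, other blood factors and targets of the members, and markers of progenitors, hepatocytes, Kupffer cells, sinusoidal endothelium, stellate cells, red cells, megakaryocytes, mast cells and basophils, neutrophils and lymphocytes. Besides the members, the text names up to 3 called genes of largest size in each direction per list detected on every array of the brighter group, close paralogs of members, and the 2 genes of most similar pattern per shared member. The members and lists were chosen with earlier results of these data known. Probe positions of slide 1 and an mm9 annotation were not used here, and some items of the lists are not reported here.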

Additional observations from a re-analysis of the deposited data

How the results depend on the processing

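Over the member results, 411 of 472 values under other settings kept their direction and their side of the threshold. Of the others, 30 lost the call, 13 gained one and 18 turned sign or rounded to 0. At 1 month against Lin- BM cells, the 8 members called became 3 with the methods' t-test after adjustment, 3 of 4 tested on the shared probes or with slide as a block, and 8 to 9 with 1 array left out. At 5 months against primary hepatocytes, the 1 member called became 0 with normexp, with no filter, with the t-test after adjustment, on the shared probes and with slide as a block, 2 with the unadjusted t-test, and 0 to 2 with 1 array left out: 0 without G1 or G3 and 2, Gfi1b and Runx1, without H2 or H4. At 1 month against primary hepatocytes, the 1 member called became 2 with normexp, 0 with quantile normalization, the percentile over all probes, the authors' values, both t-tests and only the 2 groups, and 0 to 1 with 1 array left out. At 5 months against 1 month, 0 became 1 with normexp and stayed 0 to 0 with 1 array left out. Against Lin- BM cells, 3 to 4 members were called with 1 array left out, both for primary hepatocytes and at 5 months.

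These differences turned sign or rounded to 0. With normexp, Spi1 was 0.49 at 1 month and 0.06 at 5 months against Lin- BM cells, Gata2 was 0 at 5 months against primary hepatocytes and Gfi1b -0.42 at 5 months against 1 month. With quantile normalization, Gata2 and Runx1 were -0.46 and -0.15 at 1 month against primary hepatocytes, and Gata2, Runx1 and Spi1 were 0.27, 0.21 and 0.01 at 5 months against 1 month. Gata2 at 1 month against primary hepatocytes was -0.02 with the percentile over all probes and -0.03 with the authors' values. With 1 array left out, it ran from -0.27 (without H4) to 0.77. At 5 months against primary hepatocytes, Gata2 ran from -0.73 to 0.35 (without H2), Tal1 from 0 (without H2) to 0.55 and Lmo2 from -0.08 (without H4) to 0.22. Spi1 ran from -3.30 to 0.11 (without G1) at 5 months against Lin- BM cells and from -2.47 to 0.95 (without G1) against 1 month, and Gfi1b from -0.16 (without B2) to 1.86 at 5 months against 1 month. The cause was not tested.

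Over all genes, the higher and lower calls at 1 month against Lin- BM cells were 8226 and 7552, and became 10189 and 6050 (62.7% higher, from 52.1%) with normexp, 19017 and 7445 with no filter and 2832 and 1743 with the adjusted t-test. At 5 months against primary hepatocytes 73 and 37 became 24 and 14 with no filter, 0 and 0 with the adjusted t-test or without G1 or G3, 727 and 657 without H2 and 700 and 593 without H4. At 1 month against primary hepatocytes 1062 and 470 (69.3% higher) became 665 and 592 (52.9%) with quantile normalization and 741 and 748 (49.8%) with the percentile over all probes. At 5 months against 1 month 536 and 1033 (34.2%) became 681 and 765 (47.1%) and 827 and 742 (52.7%). With normexp, the last 2 comparisons gave 1838 and 567, and 704 and 1974, and with no filter the former gave 3418 and 615. The adjusted t-test gave 0 and 2, and 4 and 10, and against Lin- BM cells it gave 1265 and 1235 for primary hepatocytes (from 2701 and 3505) and 1664 and 1665 at 5 months (from 2700 and 3478). The percentile over all probes moved the all-gene median from -0.29 to -0.05 for primary hepatocytes and from -0.30 to -0.10 at 5 months against Lin- BM cells, from 0.17 to -0.09 at 1 month against primary hepatocytes and from -0.14 to 0.08 at 5 months against 1 month. No paired analysis was done, since the sources used here name no pairs between arrays of different groups.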

Other observations

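Marker lists not given with a member above had the following levels. The summed signals are in units of the 75th percentile of the array and are given without a test. The mast cell and basophil markers, genes of a lineage that is known to depend on Gata2, summed to 36.1 and 29.5 on L3 and L4 and to between 0.0399 and 0.079 on the hepatocyte arrays. The red cell markers summed to 24.5 and 29.5 in Lin- BM cells, 25.6 and 42.5 at 1 month, 36.5 and 39.1 in primary hepatocytes and 33.8 and 37.6 at 5 months, while Epb42 among them was not well above background on any hepatocyte array. Lymphocyte markers summed to 36 on L3 and 6.10 on L4, against 0.839 and 1.08 at 1 month. The Lin- sums were mostly Cd8a, with log2 levels of 5.09 on L3 and 2.23 on L4. On slide 2 the lymphocyte sums were 2.67 and 3.51 in primary hepatocytes and 3.13 and 3.53 at 5 months. Stellate cell markers summed to 0.315 and 0.768 in Lin- BM cells and to 2.49 and 5.17 at 1 month.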
